A study of Sus scrofa with 20 samples.

Results

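The comparison set 5 hearts of the RCS group against 5 hearts of the SWOP group, 10 of the 20 arrays of a study on preconditioning in female pigs. Membership came from the sample titles, and every probe set other than the array's control spots was used. In RCS animals, coronary flow was reduced to give 90 min of low-flow ischemia, repeated 6 times at intervals of 12 h. In SWOP animals, the coronary artery was fully occluded 2 times for 10 min, each time with 10 min of reperfusion, in 1 session, and the heart was sampled after 24 h of reperfusion. The remaining arrays came from RCO animals, which received the SWOP stimulus 6 times every 12 h, and from sham-operated control animals, with 5 hearts in each group. The title of the series asks whether preconditioning after chronic ischemia works through other molecules than the classical second window. The groups differed at once in the kind of ischemia, its total length and the number of sessions, so these cannot be told apart. The sources used here give neither the interval between the last RCS episode and sampling nor the part of the heart sampled.

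Preconditioning is the protection that a tolerable ischemic episode gives the heart against a later, longer one. Its late phase, the second window, appears about a day after the stimulus and is known to depend on newly made proteins, among them inducible nitric oxide synthase, cyclooxygenase 2, heme oxygenase 1 and antioxidant enzymes. Repeated low-flow ischemia is used as a model of hibernating myocardium, heart muscle that contracts less but survives under a poor blood supply. The adult heart covers most of its energy need by oxidizing fatty acids in mitochondria and makes atrial and B-type natriuretic peptides when its wall is strained.

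Each animal gave 1 array, an Affymetrix porcine chip read in 1 colour. The deposited value of a probe set is a log2 signal, called its level below, and a difference is the RCS mean minus the SWOP mean, so that 1 unit is a 2-fold change. Of 24123 probe sets, 23999 entered the test, without the 124 control spots, and those with a single gene symbol stood for 6765 genes, each represented by its brightest probe set. The threshold was a limma p below 0.05 after Benjamini-Hochberg adjustment, from a fit of all 20 arrays. Median levels of the arrays lay between 6.75 and 6.80 in both groups. RCS arrays correlated with each other at 0.987 to 0.994, SWOP arrays at 0.991 to 0.996, and arrays of different groups at 0.956 to 0.983. On the first principal component of all 20 arrays, with 48.9% of the variance, RCS arrays scored 26.4 to 64.3 and SWOP arrays −27.5 to −17.4. The number of arrays limits the precision, and the median standard error of a difference was 0.111.

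Both groups carried the markers of heart muscle at high level. MYH7, the slow myosin heavy chain, lay between 14.79 and 14.86 in RCS arrays and between 14.78 and 14.90 in SWOP arrays. MYL2, the ventricular regulatory light chain, lay between 14.69 and 14.85 in RCS arrays and between 14.82 and 14.89 in SWOP arrays. Neither gene passed the test, but other heart muscle markers passed as lower in RCS, namely ACTC1 (−0.53), MYL3 (−0.53) and TNNT2 (−0.36). MYH7 and MYL2 therefore do not stand for all heart muscle genes. Array quality measures also differed between the groups. The mean level of the hybridization spike-ins, bacterial transcripts added to every sample, was 10.32 ± 0.11 in RCS and 10.58 ± 0.18 in SWOP (SD, n = 5 each; two-sided exact permutation p = 0.00794, the smallest possible). SWOP replicate 1 stood apart there at 10.91, with the other SWOP arrays at 10.46 to 10.55. For the control spots of actin, the 3′ minus 5′ level, which reflects RNA and labelling integrity, was 0.65 ± 0.09 in RCS and 1.47 ± 0.18 in SWOP (exact permutation p = 0.00794), and the same measure for GAPDH was 0.05 ± 0.10 in RCS and −0.12 ± 0.07 in SWOP (exact permutation p = 0.0238). For EF1a it was −0.13 ± 0.06 in RCS and 0.04 ± 0.05 in SWOP (exact permutation p = 0.00794), in the same direction as actin and opposite to GAPDH. The actin transcript was itself higher in RCS, by 1.0 at the 3′ spot. The part of these measures in the results below was not tested.

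Many genes differed between the 2 groups. In RCS hearts, genes of macrophages, scar matrix, wall stress and protein folding were higher than in SWOP hearts, and genes of mitochondrial energy metabolism, calcium cycling and contraction were lower. Of 6765 genes, 1373 were higher in RCS (20.3%) and 1198 were lower (17.7%), together 38.0%. The sizes were lopsided, with 337 genes higher and 87 lower by at least 2-fold, 64 higher and 6 lower by at least 4-fold, and 17 higher and 0 lower by at least 8-fold. The median difference over all genes was −0.02. In 1212 genes (17.9%) every RCS array lay above every SWOP array, and in 969 genes (14.3%) every RCS array lay below. Over all probe sets, with or without a symbol, 6989 passed (29.1%), 3310 higher (13.8%) and 3679 lower (15.3%). The spread between animals was wider in RCS, with a median SD of 0.154 in RCS and 0.126 in SWOP.

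**Figure D1:**
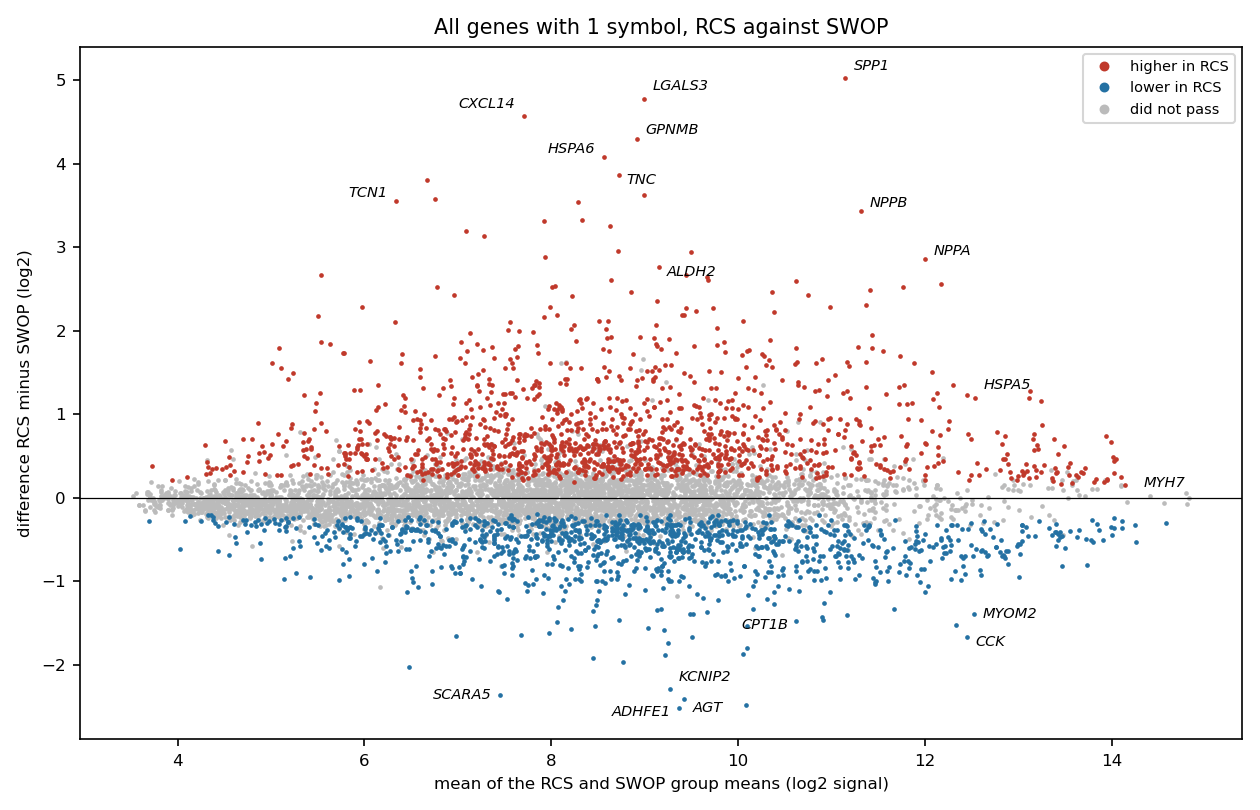
Each of the 6765 genes is plotted by the mean of the RCS and SWOP levels (x axis, log2 signal) and by the difference RCS minus SWOP (y axis, log2). Red points passed the test as higher in RCS, blue points as lower, and grey points did not pass. The upward differences reach 5.02 (SPP1), the downward ones −2.51 (ADHFE1).

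The largest differences were in secreted and macrophage-associated genes. SPP1 encodes osteopontin, a secreted phosphoprotein of wounds and macrophages. Its level was 13.28, 14.06, 13.86, 13.80 and 13.31 in the RCS arrays and 9.57, 7.17, 9.42, 8.70 and 8.36 in the SWOP arrays. The groups were far apart, with a difference of 5.02 ± 0.65 (SE), or 32.4-fold (adjusted p = 2.3e-05). LGALS3 encodes galectin-3, a sugar-binding lectin made by activated macrophages. It read 11.72, 11.56, 11.99, 11.25 and 10.40 in RCS and 7.06, 6.13, 6.46, 6.87 and 6.51 in SWOP, again without overlap (27.4-fold, adjusted p = 3.1e-05). GPNMB, a transmembrane glycoprotein of lipid-laden macrophages, read 11.29, 11.26, 11.62, 11.15 and 10.01 in RCS and 6.93, 6.14, 7.29, 7.16 and 6.32 in SWOP (19.7-fold, adjusted p = 1.5e-05). Its other 4 probe sets gave differences of 0.01 to 2.49, so the size for this gene depends on the probe set. In all 3 genes RCS replicate 5 had the lowest or the second lowest RCS level, while every RCS array stayed above every SWOP array. Control hearts averaged 7.92 for SPP1, 6.28 for LGALS3 and 6.03 for GPNMB, and RCO hearts 12.13, 8.99 and 9.10 for the same genes.

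Of 20 measured markers of macrophages and monocytes, 15 were higher in RCS (75%, against 20.3% of all genes) and 0 were lower, with a median difference of 1.07 against −0.02 over all genes. Macrophage markers are a proxy in bulk tissue, where more or fewer cells of a type and more or less RNA per cell cannot be told apart. AIF1, an actin-binding protein of activated macrophages, read 9.51 to 10.28 in RCS (median 10.19) and 7.93 to 8.64 in SWOP (median 8.15), a 3.58-fold difference (adjusted p = 2.2e-05). FCER1G, the signalling chain shared by Fc receptors, was 3.79-fold higher (adjusted p = 5.1e-05). The chemokine receptor CCR1, which guides monocytes to inflamed tissue, was 8.77-fold higher (adjusted p = 1.7e-05), and SLC11A1, the metal transporter of the macrophage phagosome, was 9.20-fold higher (adjusted p = 8.3e-05). The mannose receptor MRC1, a marker of resident tissue macrophages that was chosen after its value was seen, did not pass (−0.16). Differences were negative in 3 of the 20 markers, the lowest at −0.33. The count of lower markers was 1 with array weights, a replicate block and a fit of the RCS and SWOP arrays alone. It was also 1 without RCS replicate 5 or SWOP replicate 4.

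Markers of other blood and vessel cells were read in the same way. Of 8 neutrophil markers 1 passed (12.5%, against 38.0% of all genes in either direction), NCF1, an oxidase subunit that macrophages share, at 0.31 (adjusted p = 0.030). The median level of these 8 markers was 5.17, below the 30th percentile of signal (5.48), where differences are compressed. It did not pass without RCS replicate 2, 3 or 4 or without SWOP replicate 1, 3 or 5 (adjusted p = 0.052 to 0.086). S100A8, the abundant calcium-binding protein of neutrophils, read 4.76 to 5.19 in RCS and 4.64 to 5.24 in SWOP. Of 14 lymphocyte markers 2 were higher and 2 lower (14.3% each, against 20.3% and 17.7% of all genes). The higher were IL2RG, the common chain of cytokine receptors (1.34), and JCHAIN, the joining chain of secreted antibodies (1.66), and the lower were CD3G (−0.40) and CD79B (−0.27), chains of the T cell and B cell receptors chosen after their values were seen. Without SWOP replicate 1 neither CD3G (adjusted p = 0.084) nor CD79B (adjusted p = 0.10) passed. CD3G also failed without RCS replicate 1 or 2 or SWOP replicate 3 (adjusted p = 0.059 to 0.065), CD79B without RCS replicate 3 or 4 or SWOP replicate 4 or 5 (adjusted p = 0.055 to 0.11), and JCHAIN without RCS replicate 4 (adjusted p = 0.054) or SWOP replicate 5 (adjusted p = 0.053). Of 14 endothelial markers 1 was higher (7.14%, against 20.3% of all genes) and 2 were lower (14.3%, against 17.7%). The higher was ICAM2 (0.50), and the lower were AQP1 (−0.40) and CD34 (−0.38). AQP1, a water channel of capillaries, did not pass without RCS replicate 3 (adjusted p = 0.065). PECAM1, the adhesion molecule of endothelial junctions, differed by 0.15 (adjusted p = 0.41). Of 4 red cell markers 2 were lower (50%, against 17.7% of all genes) and 0 higher, with a median of −0.50. They were HBB, the beta chain of hemoglobin, at −0.61 (adjusted p = 0.0052), and AHSP, which stabilizes the alpha chain, at −0.61 (adjusted p = 0.030). Without RCS replicate 2, 3 or 5 or SWOP replicate 1 or 5, AHSP did not pass (adjusted p = 0.063 to 0.094) and the count was 1.

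**Figure D2:**
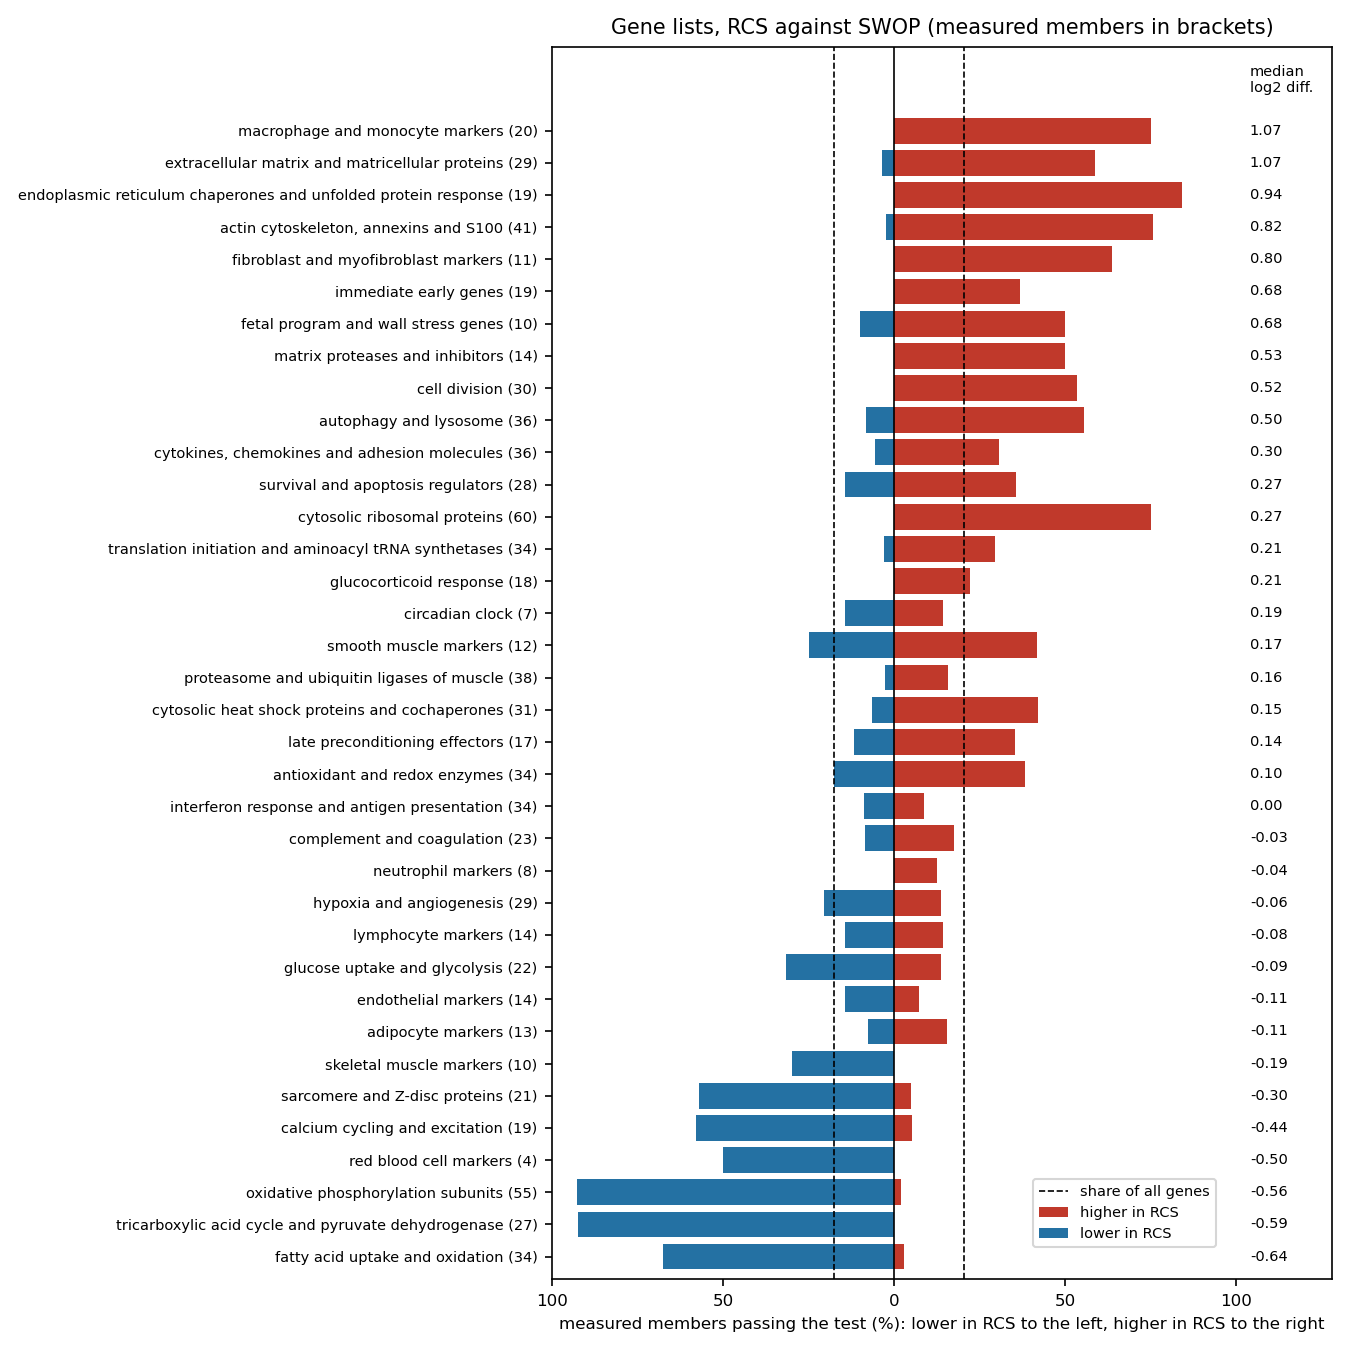
For each of 36 gene lists, the share of measured members that passed the test as higher in RCS (red, to the right) and as lower in RCS (blue, to the left), in percent, with the number of measured members in brackets and the median difference (log2) at the right edge. Dashed lines mark the shares over all genes, 20.3% higher and 17.7% lower. Macrophage, matrix and endoplasmic reticulum lists lie at the top, and fatty acid, tricarboxylic acid and oxidative phosphorylation lists at the bottom.

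Genes of the extracellular matrix were higher in RCS. Of 29 measured, 17 rose (58.6%, against 20.3% of all genes), with a median difference of 1.07. The 1 that fell (3.45%, against 17.7%) was COL15A1, a basement membrane collagen (−0.77, chosen after its value was seen). TNC encodes tenascin-C, a matrix glycoprotein that is scarce in healthy adult myocardium and appears at sites of injury. It read 9.76, 11.50, 11.48, 10.59 and 9.92 in RCS and 6.64, 6.68, 7.20, 7.33 and 6.12 in SWOP. The lowest RCS array lay above the highest SWOP array, and the difference was 3.86 ± 0.64 (SE), 14.5-fold (adjusted p = 0.00021). FN1, fibronectin, read 13.06, 13.90, 13.76, 13.68 and 12.85 in RCS and 10.90, 10.69, 10.91, 10.97 and 10.98 in SWOP (5.90-fold, adjusted p = 0.00096). Its other 3 probe sets ranged from −0.10 to 3.74. COL1A2, a chain of the main scar collagen, was 3.70-fold higher (adjusted p = 0.0050), COL8A1, a short-chain collagen of vessel walls, was 4.36-fold higher (adjusted p = 6.6e-05), and BGN, the proteoglycan biglycan, was 2.97-fold higher (adjusted p = 0.00016). The fibrillar collagen COL3A1, a member that did not pass and was chosen after its value was seen, differed by 0.20. With array weights it passed (adjusted p = 0.031).

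Proteins that cut the matrix or block its cutting were higher in 7 of 14 cases (50%, against 20.3% of all genes) and lower in 0. TIMP1, a secreted inhibitor of matrix metalloproteinases, read 11.50, 11.79, 12.49, 12.28 and 11.50 in RCS and 9.71, 9.18, 9.44, 9.30 and 8.98 in SWOP (6.02-fold, adjusted p = 0.00086). TIMP2, of the same family, was 2.52-fold higher (adjusted p = 0.00038), and PLAU, the urokinase that activates plasmin, 2.92-fold higher (adjusted p = 0.00058). MMP2, the gelatinase of fibroblasts, read 10.44 to 11.19 in RCS and 10.35 to 10.43 in SWOP. All RCS arrays lay above all SWOP arrays for MMP2, yet with the spread pooled over 4 groups the difference of 0.45 did not pass (adjusted p = 0.37). A fit of the RCS and SWOP arrays alone gave an adjusted p of 0.0069.

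Fibroblast and myofibroblast markers moved with the matrix genes. Of 11 measured, 7 rose (63.6%, against 20.3% of all genes) and 0 fell, with a median difference of 0.80. S100A4, a calcium-binding protein of fibroblasts and leukocytes, read 9.29, 9.15, 10.14, 9.86 and 8.45 in RCS and 6.55, 6.73, 6.43, 6.37 and 6.39 in SWOP (7.38-fold, adjusted p = 2.7e-05). THY1, a surface marker of fibroblasts, was 2.23-fold higher (adjusted p = 0.0024). ACTA2, the actin of smooth muscle and myofibroblasts, was 2.39-fold higher (adjusted p = 0.0053), and TAGLN, its companion transgelin, 3.09-fold higher (adjusted p = 0.0015). Of 12 smooth muscle markers, 5 were higher (41.7%, against 20.3% of all genes) and 3 lower (25%, against 17.7%). The lower ones were TPM2, beta-tropomyosin (−0.92), SMTN, smoothelin of contractile smooth muscle (−0.84), and MYOCD, the coactivator of the smooth muscle gene program (−0.72, chosen after its value was seen). The mean deviation of the members of the macrophage list ran from 0.52 to 1.02 above its 20-array mean in RCS and from −0.76 to −0.20 in SWOP. That of the fibroblast list ran from 0.24 to 0.85 in RCS and from −0.40 to −0.08 in SWOP. The part of these cells in the differences of other genes was not tested.

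Actin regulators, annexins and S100 proteins were higher in 31 of 41 cases (75.6%, against 20.3% of all genes). The 1 lower member (2.44%, against 17.7%) was GSN, the filament-severing gelsolin (−0.55, chosen after its value was seen). LCP1, an actin-bundling protein typical of leukocytes, was 10.0-fold higher (adjusted p = 4.7e-06) and CAPG, a macrophage actin-capping protein, 7.65-fold (adjusted p = 1.9e-05). ARPC5, a subunit of the Arp2/3 nucleator present in most cells, was 3.42-fold higher (adjusted p = 2.6e-05), as were ANXA1, the anti-inflammatory annexin, at 3.45-fold (adjusted p = 4.0e-05) and S100A11 at 3.09-fold (adjusted p = 2.3e-05). For LCP1 the other 4 probe sets gave 0.42 to 3.64, all of the same sign.

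Of 36 genes of autophagy and the lysosome, 20 were higher (55.6%, against 20.3% of all genes) and 3 lower (8.33%), with a median difference of 0.50. GLA, the lysosomal alpha-galactosidase, read 8.91, 8.68, 8.96, 8.85 and 8.21 in RCS and 7.08, 6.90, 7.11, 6.96 and 6.89 in SWOP (3.33-fold, adjusted p = 5.3e-06). CTSZ, the protease cathepsin Z, was 3.16-fold higher (adjusted p = 2.8e-05), and ATP6AP2, an accessory subunit of the proton pump, 1.97-fold (adjusted p = 1.5e-05). NPC2, the lysosomal cholesterol carrier, was 3.07-fold higher by its brightest probe set, while its other 2 gave −0.15 and −0.07. The 3 lower members were MAP1LC3A (−0.70), ATP6V0D1 (−0.37) and ATG7 (−0.28), chosen after their values were seen. MAP1LC3A and ATG7 build the autophagosome rather than the lysosome. ATP6V0D1, a subunit of the proton pump, did not pass without RCS replicate 2 or 4 or SWOP replicate 3, 4 or 5 (adjusted p = 0.060 to 0.085), and the mean of its probe sets gave 0.02. These genes moved with the macrophage markers above, and the part of those cells was not tested.

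**Figure D3:**
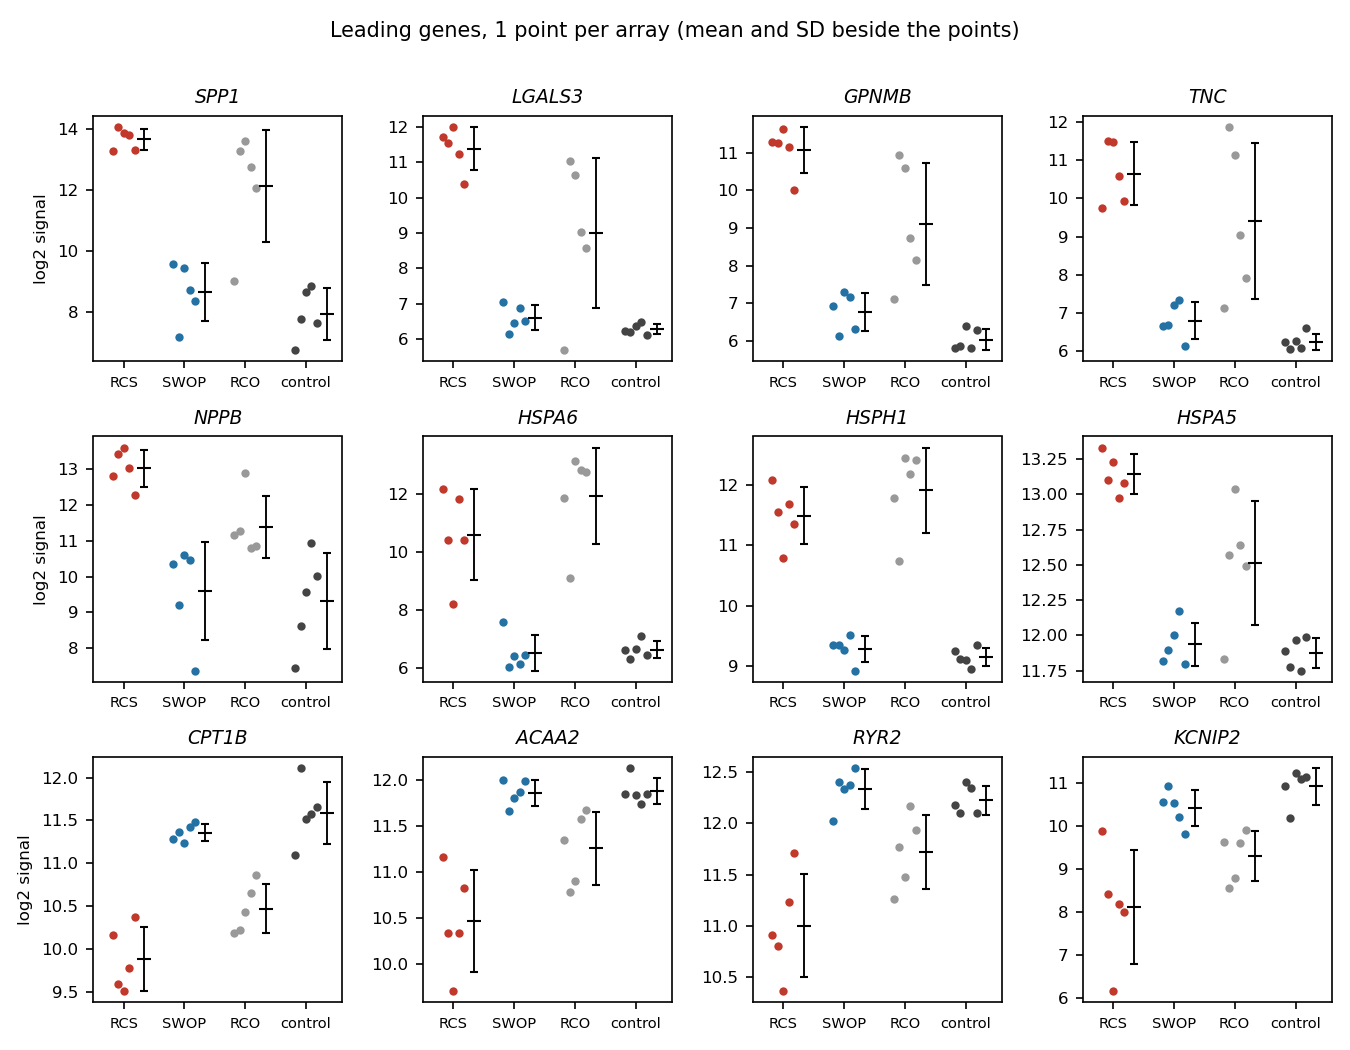
Log2 signal (y axis) of 12 genes in each array, by group (RCS, SWOP, RCO and control, 5 points each), with the group mean and SD beside the points. In the first 8 panels every RCS point lies above every SWOP point. In the last 4 the RCS points lie lower, with overlap for KCNIP2 only.

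Hormones of the strained heart wall were higher in RCS. NPPB encodes B-type natriuretic peptide and NPPA atrial natriuretic peptide, both released by stretched cardiomyocytes. NPPB read 12.82, 13.42, 13.61, 13.03 and 12.28 in RCS and 10.36, 9.20, 10.61, 10.47 and 7.37 in SWOP. The groups did not overlap, and the difference was 3.43 ± 0.61 (SE), 10.8-fold (adjusted p = 0.00038). NPPA read 13.09, 14.02, 13.62, 13.79 and 12.65 in RCS and 10.74, 11.25, 11.38, 10.68 and 8.81 in SWOP (7.27-fold, adjusted p = 0.00044). SWOP replicate 5 was the lowest SWOP array for both hormones. ANKRD1, a titin-binding stress protein, was 1.67-fold higher (adjusted p = 0.00011), and UCHL1, a deubiquitinase, 2.21-fold (adjusted p = 0.0019). Of 10 measured genes of the fetal program and wall stress, 5 were higher (50%, against 20.3% of all genes) and 1 was lower (10%, against 17.7%). The fifth higher gene was XIRP2 (1.47, an actin-binding protein of the intercalated disc). The lower one was TNNI1, the fetal troponin I (−0.82), and both were chosen after their values were seen. TNNI1 did not pass without RCS replicate 1, 2 or 3 or SWOP replicate 3 or 4 (adjusted p = 0.053 to 0.088).

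Protein-folding genes of the endoplasmic reticulum were higher almost throughout. Of 19 measured, 16 were higher (84.2%, against 20.3% of all genes) and 0 lower, with a median difference of 0.94. HSPA5 encodes BiP, the main chaperone of the compartment. It read 13.33, 13.10, 13.23, 12.97 and 13.08 in RCS and 11.82, 11.90, 12.00, 12.17 and 11.80 in SWOP, with groups well apart (2.30-fold, adjusted p = 1.6e-05). CRELD2, a secreted stress protein, read 10.32, 9.41, 9.74, 9.38 and 8.92 in RCS and 7.76, 7.66, 7.58, 7.73 and 7.48 in SWOP (3.76-fold, adjusted p = 1.0e-05). MANF, a stress-induced factor that is protective in rodent hearts, was 2.01-fold higher (adjusted p = 2.4e-05), SEC61B, a subunit of the protein channel, 2.87-fold (adjusted p = 2.6e-05), and XBP1, a transcription factor of the unfolded protein response, 1.48-fold (adjusted p = 0.00035). The 3 members that did not pass, chosen after their values were seen, were CANX (0.21) and CALR (0.35), both lectin chaperones, and DDIT3, the pro-apoptotic factor CHOP (0.66). CANX passed with quantile normalization, array weights, a replicate block and a fit of the RCS and SWOP arrays alone (adjusted p = 0.034 to 0.044). DDIT3 passed with array weights (adjusted p = 0.034).

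Cytosolic heat shock proteins differed among themselves. Of 31 measured members, 13 were higher (41.9%, against 20.3% of all genes) and 2 lower (6.45%, against 17.7%), with a median difference of 0.15. HSPA6, a strictly stress-induced member of the HSP70 family, read 12.17, 10.43, 8.19, 11.82 and 10.40 in RCS and 7.59, 6.03, 6.41, 6.13 and 6.46 in SWOP. The RCS arrays spread widely and all lay above SWOP (16.9-fold, adjusted p = 0.00020). HSPH1, which helps chaperones of that family exchange nucleotide, read 12.09, 11.55, 10.79, 11.68 and 11.35 in RCS and 9.34, 9.35, 9.26, 9.51 and 8.92 in SWOP (4.65-fold, adjusted p = 1.0e-05). DNAJB1, a stress-induced cochaperone, was 4.56-fold higher (adjusted p = 0.00053) and HSP70.2, the classical inducible member in pigs, 3.86-fold (adjusted p = 0.0021). RCS replicate 3 had the lowest RCS level in all 4 genes. The 2 lower members were STUB1, a chaperone-linked ubiquitin ligase (−0.36), and HSF1, the master transcription factor of the response (−0.21), both chosen after their values were seen. HSF1 did not pass when any 1 of the 10 arrays was left out (adjusted p = 0.056 to 0.10).

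Of 17 known effectors of the second window, 6 were higher (35.3%, against 20.3% of all genes) and 2 lower (11.8%, against 17.7%). HMOX1, heme oxygenase 1, read 9.72, 9.37, 10.19, 9.61 and 8.96 in RCS and 7.55, 7.59, 7.47, 7.32 and 7.33 in SWOP (4.34-fold, adjusted p = 0.00041). STAT3, the transcription factor of the survival kinase pathway, was 1.73-fold higher (adjusted p = 0.0017). HIF1A, the oxygen-regulated transcription factor, was 1.39-fold higher (adjusted p = 0.0014), with other probe sets at −0.12 to 0.66. NOS2, the inducible nitric oxide synthase, read 6.52 to 6.91 in RCS and 6.70 to 7.10 in SWOP (difference −0.21, adjusted p = 0.21). PTGS2, cyclooxygenase 2, read 4.14 to 4.29 in RCS and 3.97 to 4.22 in SWOP, near the dim end of the array (difference 0.14, adjusted p = 0.71). SOD2, the mitochondrial superoxide dismutase, was lower, at 12.37, 11.96, 11.60, 12.02 and 12.25 in RCS and 12.67, 12.76, 12.59, 12.83 and 12.83 in SWOP (−0.70, adjusted p = 0.00080). The second lower member was KCNJ8, the pore of an ATP-sensitive potassium channel (−0.63, chosen after its value was seen).

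Of 34 antioxidant enzymes, 13 were higher (38.2%, against 20.3% of all genes) and 6 lower (17.6%, near the 17.7% of all genes). ALDH2, the mitochondrial aldehyde dehydrogenase, read 10.62, 10.62, 10.87, 10.51 and 10.03 in RCS and 7.76, 7.72, 7.89, 8.02 and 7.48 in SWOP. Groups were clearly separate, with a 6.76-fold difference (adjusted p = 6.7e-05). TXN, thioredoxin, was 2.12-fold higher (adjusted p = 8.7e-06), and GCLC, the rate-limiting enzyme of glutathione synthesis, 1.89-fold (adjusted p = 2.9e-05), although the other 4 probe sets of GCLC ranged from −0.14 to 1.10. CAT, the catalase that removes hydrogen peroxide, differed by −0.70 (adjusted p = 0.00014). Its RCS levels were 10.51 to 10.93 and its SWOP levels 11.27 to 11.52.

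Mitochondrial energy metabolism was lower in RCS in each of its 3 lists. Of 55 subunits of oxidative phosphorylation, 51 were lower (92.7%, against 17.7% of all genes) and 1 higher, with a median difference of −0.56. Of 27 genes of the tricarboxylic acid cycle and pyruvate dehydrogenase, 25 were lower (92.6%) and 0 higher, with a median of −0.59. Of 34 genes of fatty acid uptake and oxidation, 23 were lower (67.6%) and 1 higher, with a median of −0.64. Differences of single subunits were small, and of the 55 only NDUFS7 and NDUFV1 were lower by at least 2-fold.

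**Figure D4:**
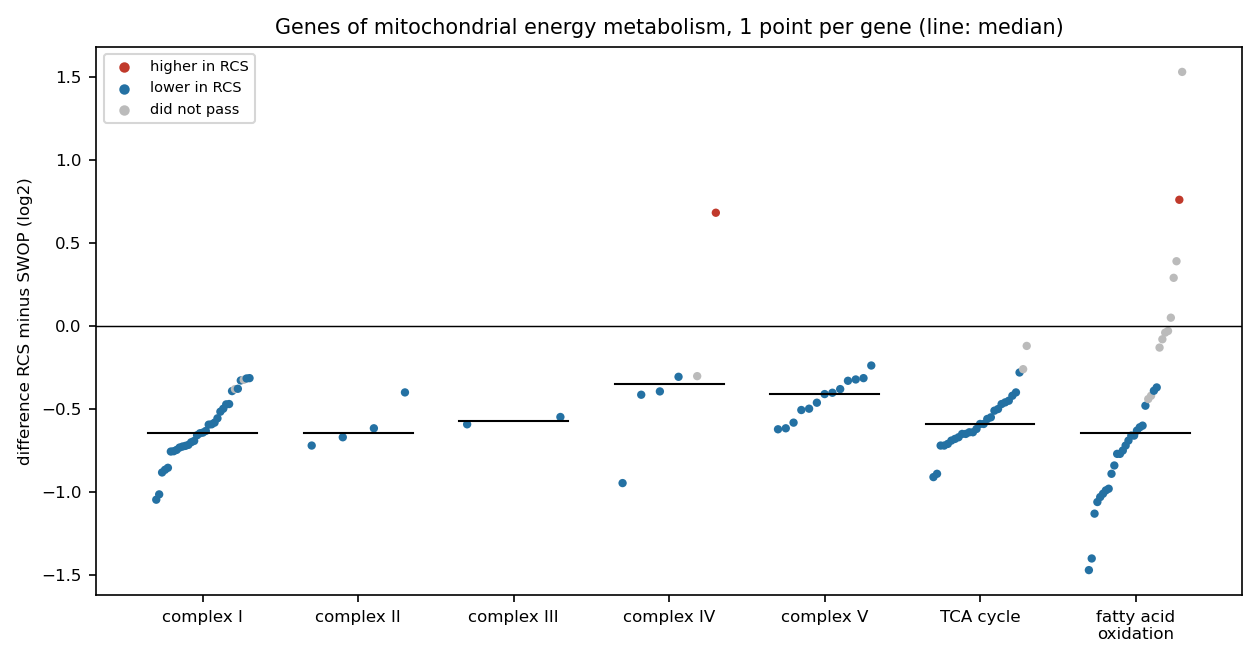
Each point is a gene of a respiratory complex, of the tricarboxylic acid (TCA) cycle or of fatty acid oxidation, placed by its difference RCS minus SWOP (y axis, log2). Blue points passed as lower in RCS, red as higher and grey did not pass, and the line is the median of the column. Nearly all points lie below 0, with medians of −0.64 in complex I and −0.41 in complex V.

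Among the respiratory complexes, complex I, which takes electrons from NADH, had 31 of 33 members lower, with a median of −0.64. NDUFS7, one of its iron-sulfur subunits, read 11.86, 11.20, 11.10, 11.55 and 11.82 in RCS and 12.59, 12.56, 12.32, 12.57 and 12.72 in SWOP (2.06-fold lower, adjusted p = 4.7e-05). NDUFV1, the subunit that binds NADH, was 2.02-fold lower (adjusted p = 5.5e-05). All 13 measured members of complex V, the ATP synthase, were lower, with a median of −0.41. ATP5B, its catalytic beta subunit, read 13.17 to 13.61 in RCS and 13.68 to 13.81 in SWOP (−0.40, adjusted p = 0.0022). Complex IV, cytochrome oxidase, had 4 of 6 lower and 1 higher. The higher one was COX6A1, the isoform of tissues other than heart and skeletal muscle (0.68), and the muscle isoform COX7A1 had the lowest value of the complex (−0.95), both chosen after their values were seen. The 4 measured members of complex II and the 2 of complex III were all lower, with medians of −0.64 and −0.57. SDHB, the iron-sulfur subunit of complex II, gave −0.67 (adjusted p = 0.00032), while its other probe set gave 0.13.

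In the tricarboxylic acid cycle, CS, the citrate synthase that opens the cycle, differed by −0.46 (adjusted p = 0.0027). It read 12.73 to 13.18 in RCS and 13.10 to 13.43 in SWOP, so that the groups overlapped. MDH2, the mitochondrial malate dehydrogenase, read 12.79, 12.44, 12.21, 12.40 and 12.66 in RCS and 12.99, 13.20, 13.23, 13.22 and 13.25 in SWOP (−0.68, adjusted p = 0.00017). Fumarase, FH, gave −0.56 (adjusted p = 0.00044). The 2 members that did not pass were the anaplerotic enzyme PC (−0.26) and OGDHL (−0.12), chosen after their values were seen. PC passed with array weights (adjusted p = 0.032) and in a fit of the RCS and SWOP arrays alone (adjusted p = 0.012).

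In fatty acid oxidation, CPT1B, the muscle carnitine palmitoyltransferase that admits long-chain fatty acids to mitochondria, read 10.17, 9.60, 9.51, 9.78 and 10.38 in RCS and 11.28, 11.37, 11.24, 11.42 and 11.48 in SWOP. The groups did not overlap, and the difference was −1.47 ± 0.18 (SE), 2.77-fold lower (adjusted p = 1.4e-05). ACAA2, the thiolase of the last step of the spiral, read 11.16, 10.33, 9.70, 10.33 and 10.82 in RCS and 12.00, 11.66, 11.80, 11.87 and 11.99 in SWOP (2.63-fold lower, adjusted p = 7.9e-05). OXCT1, which activates ketone bodies for use as fuel, was 1.98-fold lower (adjusted p = 2.4e-05). Outside the list, RXRG, the retinoid receptor that partners fatty acid receptors in muscle, was 3.79-fold lower (adjusted p = 8.7e-05). The 1 higher member was ACSL4, an acyl-CoA synthetase for arachidonic acid (0.76), and PDK4, the kinase that shuts off pyruvate oxidation, had the largest positive value without passing (1.53), both chosen after their values were seen. PDK4 passed without RCS replicate 2 (1.93, adjusted p = 0.033). It also passed with array weights (1.61, adjusted p = 0.021) and in a fit of the RCS and SWOP arrays alone (adjusted p = 0.015).

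Of 22 genes of glucose uptake and glycolysis, 3 were higher (13.6%, against 20.3% of all genes) and 7 lower (31.8%, against 17.7%). LDHA, the lactate dehydrogenase of glycolytic tissue, read 12.50, 12.64, 12.98, 12.74 and 12.52 in RCS and 11.50, 11.60, 11.25, 11.63 and 11.49 in SWOP (2.27-fold higher, adjusted p = 3.6e-05). ENO1, the general enolase, was 3.10-fold higher (adjusted p = 0.00016), and the third was SLC16A3, a lactate exporter (1.12, chosen after its value was seen). Lower members included 3 that are typical of muscle. ENO3, the muscle enolase, differed by −0.41 (adjusted p = 0.0041), PGAM2, the muscle phosphoglycerate mutase, by −0.87 (adjusted p = 0.00067), and SLC2A4, the insulin-regulated glucose transporter, by −0.88 (adjusted p = 0.0018). SLC2A1, the basal glucose transporter, read 8.73 to 9.35 in RCS and 8.31 to 9.14 in SWOP (adjusted p = 0.84).

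Calcium cycling genes were lower in 11 of 19 cases (57.9%, against 17.7% of all genes), with a median of −0.44. The 1 higher member (5.26%, against 20.3%) was FKBP1B, a stabilizer of the calcium release channel (0.60, chosen after its value was seen). RYR2, that release channel itself, read 10.91, 10.80, 10.36, 11.23 and 11.71 in RCS and 12.02, 12.40, 12.34, 12.38 and 12.54 in SWOP. The groups did not overlap (2.52-fold lower, adjusted p = 6.7e-05), and its other 2 probe sets gave −0.93 and −0.30. HRC, the calcium-binding protein of the sarcoplasmic reticulum, was 1.93-fold lower (adjusted p = 5.7e-05). ATP2A2, the pump that refills the reticulum, gave −0.50 with its brightest probe set (adjusted p = 0.0018), while its other 3 ranged from −0.12 to 0.35, so no direction is given for this gene. KCNIP2, the subunit that sets the fast transient outward potassium current, was not in this list. It read 9.88, 8.41, 6.15, 8.19 and 8.0 in RCS and 10.57, 10.93, 10.55, 10.21 and 9.82 in SWOP (4.89-fold lower, adjusted p = 0.00077). RCS replicate 1 lay above the lowest SWOP array for KCNIP2.

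Sarcomere genes were lower by smaller amounts. Of 21 measured, 12 fell (57.1%, against 17.7% of all genes), with a median of −0.30. The 1 that rose (4.76%, against 20.3%) was CAPZB, an actin-capping protein (0.57, chosen after its value was seen). MYOM2, the M-band protein myomesin 2, read 12.41, 11.78, 10.74, 11.90 and 12.34 in RCS and 13.32, 13.35, 13.07, 13.07 and 13.33 in SWOP (2.63-fold lower, adjusted p = 0.00021). ACTC1, cardiac actin, differed by −0.53 (adjusted p = 8.7e-05), MYL3, the essential light chain, by −0.53 (adjusted p = 0.00029), TTN, the giant spring titin, by −0.36 (adjusted p = 0.0012), and TNNT2, cardiac troponin T, by −0.36 (adjusted p = 0.0063). MYH7 differed by 0.00 (adjusted p = 0.98) and MYL2 by −0.07 (adjusted p = 0.30), and neither passed. CKM, the muscle creatine kinase that buffers ATP at the myofibril, was 1.75-fold lower (adjusted p = 0.0010).

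**Figure D5:**
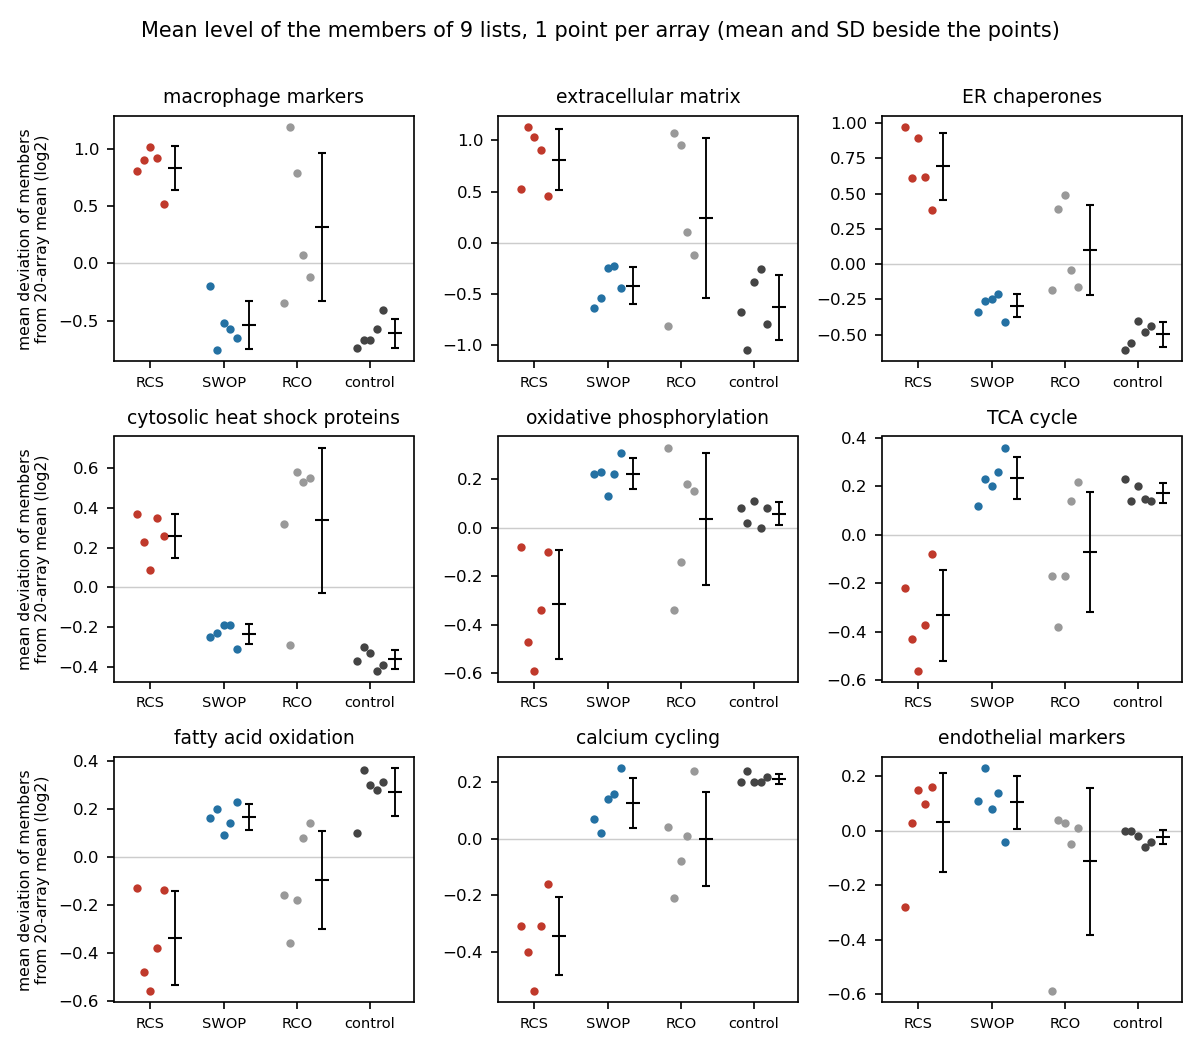
For 9 lists, the mean over members of the deviation from the gene's 20-array mean (y axis, log2), 1 point per array by group (RCS, SWOP, RCO and control), with the group mean and SD beside the points. RCS and SWOP arrays do not overlap in the first 8 panels and overlap for endothelial markers. RCO arrays spread widely in most panels.

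The largest decreases lay outside the lists. ADHFE1, a mitochondrial iron alcohol dehydrogenase, read 9.44, 7.79, 6.83, 8.02 and 8.45 in RCS and 10.62, 10.48, 10.49, 10.63 and 10.86 in SWOP (5.70-fold lower, adjusted p = 1.3e-05). AGT, angiotensinogen, the precursor of angiotensin, read 9.37, 8.31, 7.09, 7.70 and 8.63 in RCS and 10.79, 10.39, 10.41, 10.80 and 10.78 in SWOP (5.33-fold lower, adjusted p = 0.00013). SCARA5, a scavenger receptor for ferritin, was 5.12-fold lower (adjusted p = 2.2e-05), and DPP4, a surface peptidase, 3.33-fold lower (adjusted p = 7.2e-05). CCK, the peptide cholecystokinin, was bright in both groups, at 10.47 to 12.59 in RCS and 13.10 to 13.52 in SWOP (3.19-fold lower, adjusted p = 0.00027). RNF207, a ubiquitin ligase that affects cardiac repolarization, was 3.89-fold lower (adjusted p = 5.7e-06). RCS replicate 1 had the highest and RCS replicate 3 the lowest RCS level for ADHFE1, AGT, KCNIP2 and CCK.

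Of 29 genes of hypoxia and angiogenesis, 4 were higher (13.8%, against 20.3% of all genes) and 6 lower (20.7%, near the 17.7% of all genes). CITED2, which restrains HIF1A, read 10.78, 9.92, 10.06, 9.84 and 10.30 in RCS and 11.50, 11.59, 11.75, 11.54 and 11.81 in SWOP (2.75-fold lower, adjusted p = 5.0e-06). VEGFB, a growth factor abundant in heart, was 1.68-fold lower (adjusted p = 0.00024). IGFBP5, a carrier of insulin-like growth factors, was 3.13-fold lower (adjusted p = 0.00038). VEGFA, the hypoxia-induced vascular growth factor, read 10.58 to 11.38 in RCS and 11.01 to 11.27 in SWOP, with no difference that passed (adjusted p = 0.89). The higher members were HIF1A, BHLHE40, a hypoxia-induced repressor (1.25, other probe set −0.18), P4HA2, a collagen prolyl hydroxylase (0.64), and HILPDA, a lipid droplet protein (0.37). P4HA2 and HILPDA were chosen after their values were seen, and HILPDA did not pass without RCS replicate 1, 2, 3 or 4 or SWOP replicate 1 or 2 (adjusted p = 0.052 to 0.065).

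Immediate early genes, which respond within minutes to a stimulus, were higher in 7 of 19 cases (36.8%, against 20.3% of all genes) and lower in 0. NR4A3, an orphan nuclear receptor, read 9.84, 10.46, 8.63, 10.66 and 11.36 in RCS and 8.73, 6.53, 7.29, 7.40 and 6.27 in SWOP. RCS replicate 3 fell just below SWOP replicate 1, and the difference was 7.71-fold (adjusted p = 0.0043). ATF3, a stress transcription factor, read 9.66, 10.14, 9.07, 10.59 and 10.26 in RCS and 7.80, 6.55, 8.50, 7.32 and 6.50 in SWOP (6.11-fold, adjusted p = 0.0017). FOSL2, a subunit of the AP-1 transcription factor, was 2.52-fold higher (adjusted p = 0.00032). FOS read 9.49 to 10.19 in RCS and 6.55 to 10.47 in SWOP, and the difference of 1.66 did not pass (adjusted p = 0.10). Without SWOP replicate 3, FOS differed by 2.24 (adjusted p = 0.027). With all arrays kept, FOS passed with a replicate block (adjusted p = 0.028). In a fit of the RCS and SWOP arrays alone its adjusted p was 0.038. The count of higher genes was 4 of 19 without RCS replicate 3 or without SWOP replicate 5, and 11 in a fit of the RCS and SWOP arrays alone. Over all 6765 genes, 1106 were higher without RCS replicate 3, 1172 without SWOP replicate 5 and 1624 in the fit of those arrays alone. Control hearts averaged 10.07 for NR4A3 and 8.53 for ATF3, in both cases above the SWOP mean. Immediate early transcripts are short-lived, and the time after the last RCS episode is not known from the sources used here.

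Among 36 cytokines, chemokines and adhesion molecules, 11 were higher (30.6%, against 20.3% of all genes) and 2 lower (5.56%, against 17.7%). The median difference was 0.30. The count of higher genes was 10 without RCS replicate 4 or SWOP replicate 5, and 17 in a fit of the RCS and SWOP arrays alone. CXCL14, a chemokine of monocytes and epithelia, read 10.04, 10.89, 10.19, 9.87 and 8.98 in RCS and 5.52, 5.06, 5.32, 5.92 and 5.30 in SWOP (23.8-fold, adjusted p = 0.00024), and its other probe set gave 3.35. CCL2, the main monocyte attractant, read 11.05, 11.08, 11.21, 11.22 and 11.07 in RCS and 9.96, 8.61, 9.59, 9.60 and 9.35 in SWOP (3.26-fold, adjusted p = 0.0079). IL18, activated by the inflammasome, was 2.72-fold higher (adjusted p = 0.00011), and TGFBR1, the signalling receptor of transforming growth factor beta, 2.26-fold (adjusted p = 1.6e-05), although its other 2 probe sets gave −0.07 and 0.89. IL6 read 4.43 to 4.86 in RCS and 4.39 to 4.58 in SWOP, near the dim end (adjusted p = 0.91). The 2 lower members, chosen after their values were seen, were CXCL12, which retains stem cells and lymphocytes (−0.71), and IL15, a lymphocyte growth factor (−0.60). CXCL12 did not pass without RCS replicate 3 (adjusted p = 0.054).

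Interferon and antigen presentation genes did not shift as a list, with a median of 0.00. Of 34 measured, 3 were higher and 3 lower (8.82% each, against 20.3% and 17.7% of all genes). SLA-DQA1, a class II antigen-presenting chain of the pig, was 1.92-fold higher (adjusted p = 0.0040), and IRF8, a transcription factor of monocytes, 2.32-fold (adjusted p = 0.00058). UBD, a ubiquitin-like protein induced by interferon gamma, was 2.30-fold lower (adjusted p = 0.014). The count of lower genes was 1 without RCS replicate 2, 3, 4 or 5 or SWOP replicate 1 or 4, and 5 without RCS replicate 1, and the count of higher genes was 7 without SWOP replicate 1.

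Cell division genes were higher in 16 of 30 cases (53.3%, against 20.3% of all genes) and lower in 0, with a median of 0.52. TOP2A, the topoisomerase of dividing cells, read 8.86, 8.90, 9.06, 9.08 and 8.86 in RCS and 8.20, 8.21, 7.88, 7.87 and 7.74 in SWOP (1.96-fold, adjusted p = 0.0013). CCNB1, the mitotic cyclin B1, was 2.16-fold higher (adjusted p = 0.0061) and BIRC5, survivin, 2.20-fold (adjusted p = 0.0010). Whether cells divided, and which, cannot be read from transcripts of bulk tissue.

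Genes of the cytosolic ribosome were higher by small amounts, with a median of 0.27 and a range of −0.24 to 0.79. Of 60 measured, 45 were higher (75%, against 20.3% of all genes) and 0 lower. RPSA, a protein of the small subunit that also binds laminin, read 13.66, 13.73, 13.90, 13.73 and 13.69 in RCS and 13.29, 12.92, 12.95, 13.04 and 12.96 in SWOP (1.64-fold, adjusted p = 4.1e-05). RPL12, of the large subunit, was 1.5-fold higher (adjusted p = 0.00019), while its other 2 probe sets gave 0.04 and 0.43. RPLP0, of the ribosomal stalk, did not pass (0.14, adjusted p = 0.060). It did pass with quantile normalization (adjusted p = 0.041), with array weights (adjusted p = 0.0061) and without SWOP replicate 1 (adjusted p = 0.045).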

How the data were processed

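The deposited series matrix holds log2 signals of 20 arrays in 4 groups of 5, made by the authors with RMA and MAS5, per the submitters' processing notes, which do not say which step each served. No source states the log base, and 2 was inferred because the values span a log2 range. Total RNA was extracted with Trizol and labelled with biotin, per the labels' protocols. Values were used as deposited. In R 4.3.3, limma 3.58.1 (lmFit, then eBayes) estimated 4 group means with 16 residual degrees of freedom, and RCS minus SWOP was tested for 23999 probe sets with Benjamini-Hochberg adjustment over all of them. Array properties were compared with two-sided exact permutation tests over 252 divisions. p-values measure the spread between animals. Symbols came from the platform's probe table, where 10069 tested probe sets had 1 symbol, 198 several and 13732 none. Of 1180 symbols in 36 lists, 832 were measured, 8 of them under another symbol.

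Named genes needed 1 proper symbol, not one that stands for a locus or clone. They were the 15 largest passing differences in each direction with a mean above the 30th percentile of signal in the higher group, up to 4 passing members of smallest p per list, and the first 2 measured members of each list. The text gives a part of them, and marks genes outside the rule as chosen after their values were seen. The comparison and the lists were chosen with earlier results of these data known.

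The fit was tested on simulated data. Alternatives were quantile normalization, median centring, array weights, a replicate block, removal of probe sets dimmer than the 30th percentile, a robust prior with an intensity trend, a fit of the 2 groups alone, a limit of 1.5-fold, the mean of a gene's probe sets and each array left out in turn. A search of promoters for motifs was not run, since no sequences were used here. Python 3.11.15 with pandas 2.3.3, numpy 2.4.6 and scipy 1.17.1 made the tables, and matplotlib 3.10.9 drew the plots.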

Additional observations from a re-analysis of the deposited data

Results flagged for a closer look

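In 23 of 346 groups of 5 arrays, 1 array lay far from the others, as the gap to its nearest neighbour over the group's range exceeded 0.71. Chance gives about 1 in 20 such groups. SWOP replicate 1 was that array 8 times, RCS replicate 5 4 times, and RCS replicate 1 and SWOP replicate 5 3 times each.

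SWOP replicate 1 was the highest SWOP array for DDIT3 (ratio 0.818), HSPA6 (0.724), RPLP0 (0.727), SLA-DQA1 (0.797) and the mean of the hybridization spike-ins (0.801), and the lowest for MDH2 (0.808), SLC2A1 (0.843) and TTN (0.75). For SLC2A1 it read 8.31 and the other SWOP arrays 9.01 to 9.14. SWOP replicate 5 was the lowest for NPPA (0.728), at 8.81 with the others at 10.68 to 11.38, and for XIRP2 (0.741), and the highest for STUB1 (0.75). In the other SWOP arrays, replicate 2 was lowest for FN1 (0.724) and highest for MYL2 (0.714), replicate 3 highest for CASP8 (0.731) and replicate 4 highest for S100A11 (0.8).

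RCS replicate 5 was the lowest RCS array for FCER1G (0.712) and PTGS2 (0.733) and the highest for S100A8 (0.837) and TTN (0.75). For FCER1G it read 8.83 and the other RCS arrays 9.62 to 9.94. RCS replicate 1 was the lowest for COL15A1 (0.8) and XIRP2 (0.716) and the highest for HBB (0.885), at 8.73 with the others at 7.95 to 8.04. RCS replicate 3 was the highest for GCLC (0.733).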

How the results depend on the processing

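Of 142 genes in the text that passed, 130 kept sign and call in every alternative other than the limit of 1.5-fold, 12 lost the call at least once, and 89 lost it when the difference itself had to exceed 1.5-fold. That limit, a stricter hypothesis by construction, left 349 probe sets (288 higher, 61 lower) and 186 genes (156 higher, 30 lower), so that 83.9% of genes were higher, against 53.4% without it. Other alternatives gave 6587 (dim probe sets left out) to 10227 (array weights) probe sets, the fit of the 2 groups alone 8636, and leaving out 1 array 5430 (RCS replicate 3) to 7118 (RCS replicate 5). Same-numbered arrays deviated together with correlations of −0.097 to 0.171, so the numbers were not taken as pairing the animals, and the replicate block gave 7434 probe sets.

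With the mean of all probe sets, list medians were 0.72 for matrix (1.07 with the brightest), −0.28 for calcium cycling (−0.44), 0.39 for autophagy and lysosome (0.50) and 0.39 for cell division (0.52), and ATP6V0D1 turned to 0.02. The survival list gave 0.35 with array weights. Quantile normalization turned complement genes to 0.01, neutrophil markers to 0.00 and MYH7 to 0.03, and array weights turned complement genes to 0.02. Leaving out 1 array gave medians of 0.18 to 0.34 for survival, 0.13 to 0.32 for the circadian clock, −0.08 to 0.09 for interferon, −0.06 to 0.02 for complement, −0.13 to 0.02 for neutrophil and −0.17 to −0.07 for adipocyte markers. It also turned the sign of genes that did not pass, CALR (−0.19 to 0.60), MYH7 (−0.01 to 0.02), S100A8 (−0.14 to 0.02), SLC2A1 (−0.09 to 0.12) and VEGFA (−0.12 to 0.08). The causes were not tested. Dim genes such as PTGS2 and IL6 lie where differences are compressed, so they set no limit on change.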

Other observations

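Of 28 regulators of survival and apoptosis, 10 were higher in RCS (35.7%, against 20.3% of all genes) and 4 lower (14.3%, against 17.7%). TNFRSF12A, the receptor of the cytokine TWEAK, read 10.82, 10.74, 11.02, 10.80 and 10.99 in RCS and 10.13, 9.13, 9.73, 9.76 and 9.34 in SWOP (2.39-fold, adjusted p = 8.3e-05). CASP8, the initiator caspase of death receptors, was 1.56-fold higher (adjusted p = 0.00088). AIFM1, a mitochondrial flavoprotein that also supports the respiratory chain, read 11.03, 10.54, 10.45, 10.77 and 11.34 in RCS and 11.57, 11.81, 11.63, 11.85 and 11.88 in SWOP (1.89-fold lower, adjusted p = 0.00019). BCL2L1, which keeps mitochondria intact, differed by −0.25 (adjusted p = 0.19). The number lower was 2 without RCS replicate 3 or SWOP replicate 5.

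Of 18 measured genes that respond to glucocorticoids, 4 were higher in RCS (22.2%, close to the 20.3% of all genes) and 0 lower. SGK1, a kinase of sodium transport, was 2.36-fold higher (adjusted p = 0.0022), and CEBPD, a transcription factor of the acute phase, 3.02-fold (adjusted p = 0.0022). FKBP5, the receptor's cochaperone, read 8.63 to 9.35 in RCS and 8.37 to 9.06 in SWOP (adjusted p = 0.10), and TSC22D3, the leucine zipper induced by the hormone, 9.02 to 9.50 in RCS and 9.31 to 9.58 in SWOP (adjusted p = 0.36). FKBP5 passed with array weights, with the mean of its probe sets and without RCS replicate 2 or SWOP replicate 1 (adjusted p = 0.02 to 0.042).

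Among the largest increases were genes with no place in the lists. CPM, a surface carboxypeptidase of macrophages, read 10.61, 11.23, 11.43, 10.74 and 10.05 in RCS and 7.45, 6.95, 7.27, 7.17 and 7.07 in SWOP (12.4-fold, adjusted p = 4.1e-06). SLC2A5, the fructose transporter, read 8.43, 8.6, 8.82, 8.99 and 7.88 in RCS and 4.81, 4.95, 5.17, 4.94 and 4.96 in SWOP (11.9-fold, adjusted p = 1.5e-05), and all SWOP levels were below the 30th percentile of signal (5.48). TCN1, a vitamin B12 carrier of granules and glands, read 8.36, 8.53, 7.95, 8.91 and 6.78 in RCS and 4.34, 4.37, 4.72, 4.57 and 4.80 in SWOP (11.7-fold, adjusted p = 1.1e-06), but its other probe set gave 0.13. AMBN, listed on the platform as the enamel protein ameloblastin, was 9.61-fold higher without overlap (adjusted p = 1.8e-06). Control hearts averaged 5.36 for SLC2A5, 4.43 for TCN1 and 6.59 for AMBN.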
